A study of Mus musculus with 8 samples.

Results

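Extracellular adenosine is made, removed and sensed by a small set of enzymes, transporters and receptors. The transcripts of 10 genes listed under this pathway were followed in the liver of db/db mice. The genes were Nt5e, Entpd1, Entpd2, Entpd5, Entpd8, Enpp1, Ada, Adk, Adora1 and Slc29a1. They were taken by symbol from a table of 21532 genes, and all 10 were present. Nt5e headed the list because it had been picked out by its own difference between the groups compared here. Its values are therefore given as a description with no test. The other 9 genes were listed under the pathway, among them Entpd5, whose enzyme acts mainly on UDP and GDP.

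Both groups were male db/db mice from The Jackson Laboratory on a C57BL/6J background, which carry a mutation of the leptin receptor and become obese and diabetic. From 8 weeks of age they received 5 mg/kg of control or of AF1 peptide, 2 times a week for 5 weeks, by retro-orbital injection. AF1 peptide is a synthetic peptide derived from estrogen receptor α fused to a TAT sequence, which brings it into cells. Frozen liver of 4 mice per group was sequenced, with 1 stranded mRNA library for each mouse. No lean mice entered the comparison, so the difference between the groups is one within obese, diabetic animals. The liver holds many cell types, and fewer cells of a type and less RNA per cell cannot be told apart in these bulk libraries.

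Cells release ATP and ADP when stressed or damaged. Ecto-nucleotidases on the cell surface cut these step by step to AMP, and CD73, the product of Nt5e, removes the last phosphate to give adenosine. Adenosine then acts on G protein-coupled receptors, or enters cells through equilibrative transporters, where it is phosphorylated back to AMP by adenosine kinase or deaminated to inosine. Extracellular adenosine is known in the liver for its part in inflammation, fibrosis and lipid storage.

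The deposited values are normalized read counts, that is, the reads of a gene divided by 1 size factor per library. The libraries held 23031880 to 45117528 reads. Hepatocyte markers were abundant in each of them, with 1224160 to 1997674 normalized counts for Alb, which encodes albumin. One library stood apart. AF1 peptide replicate 1 lay at 74.25 on the first principal component, which held 39.3% of the variance, and the other 7 mice lay between −21.8 and 2.33. The share of reads from mitochondrial genes was 21.06% in this library. It was 34.69 to 38.17% in AF1 peptide replicates 2 to 4, and control mice had 22.63 to 34.69%. Differences of the 10 genes, of called pathway genes and of those it moved most are therefore also given without it.

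Nt5e was lower after AF1 peptide, and each treated mouse lay below each control mouse. In control mice, the normalized read counts of Nt5e were 380, 404, 273 and 348. In AF1 peptide-treated mice they were 219, 152, 207 and 206. The lowest control mouse, replicate 3, thus stood above the highest treated mouse, replicate 1, and the groups did not overlap. The mean was 351 ± 56.7 (SD, n = 4) with control and 196 ± 30.1 (SD, n = 4) with AF1 peptide. On the log2(normalized count + 1) scale the difference was −0.84, with a standard error of 0.16. Without AF1 peptide replicate 1 it was −0.90, and leaving out each mouse in turn gave −0.95 to −0.72.

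Nt5e rested on 83 to 461 reads per library. The 95% Poisson interval of the lowest control mouse was 241 to 309 normalized counts, and that of the highest treated mouse was 192 to 249, so the intervals of these 2 mice overlapped at their ends. The lowest treated mouse had 83 reads, with an interval of 121 to 188. These intervals cover counting error only. The spread between mice was larger than counting error, with a coefficient of variation of 16.1% in control mice and 15.4% in treated mice against 5.24% and 7.87% from counting. Among 15989 genes with a mean of 10 or more normalized counts, 1.85% were lower in all treated mice than in all control mice, 2.05% were higher in all, and 3.90% had groups that did not overlap in either direction. Nt5e was picked from the 72 of these that also had a mean of 50 or more and met the call used below, as the one with the lowest log2 difference. These are the values that chose it and support nothing further. The next was Anxa2, which encodes annexin A2, at −0.82. Among all 12443 tested genes with a mean of 50 or more, overlapping or not, Nt5e came 52nd by its log2 difference.

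**Figure D1:**
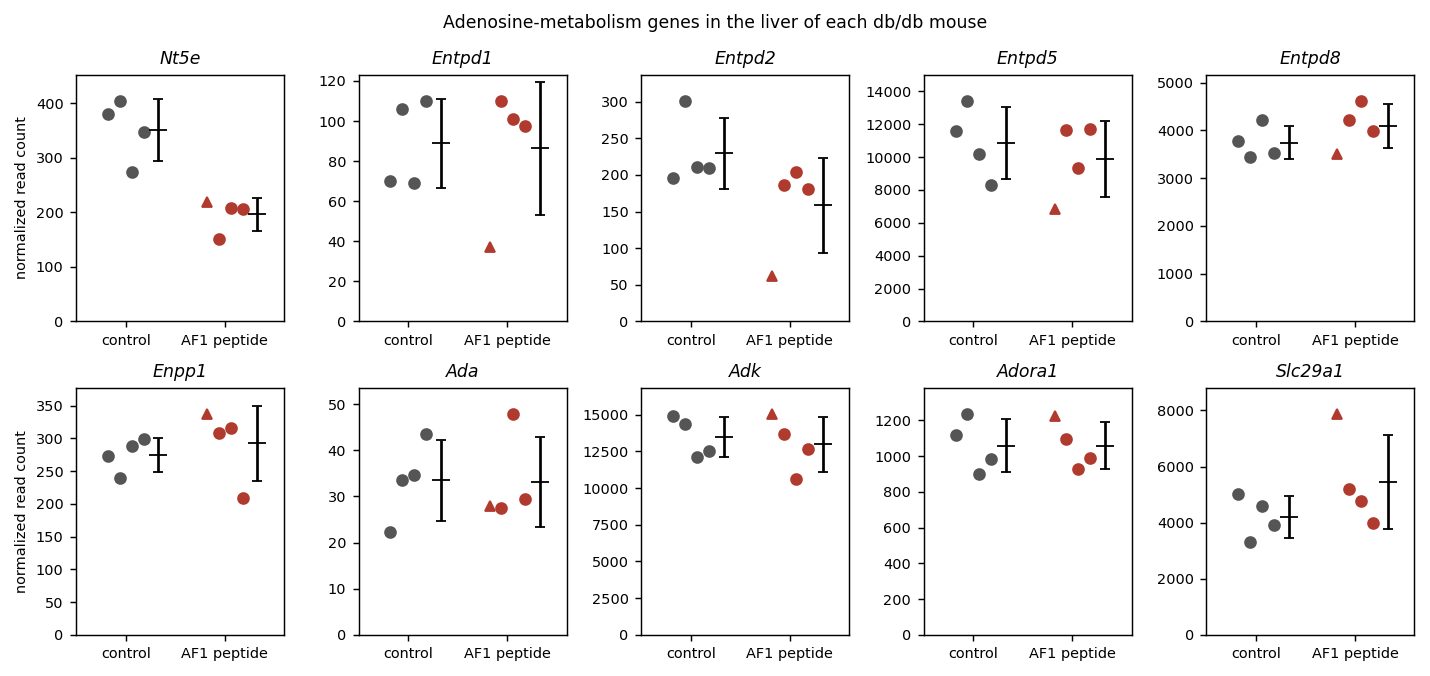
Normalized read counts (vertical axes, each from 0) of the 10 genes in each mouse, with control mice in grey, AF1 peptide-treated mice in red, AF1 peptide replicate 1 as a triangle, and the mean and SD of 4 mice beside the points. For Nt5e the treated mice lie at 152 to 219 and the control mice at 273 to 404, and for the other 9 genes the groups overlap.

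None of the other 9 genes passed the call used here, an unadjusted limma p value under 0.05 together with a fold change beyond 1.3. Of all 15989 tested genes, 3.69% were called, 1.79% higher and 1.90% lower with AF1 peptide. At an unadjusted p value under 0.05 with any fold, limma, edgeR and DESeq2 each gave 0 of the 9. Of all genes, edgeR called 3.92% and DESeq2 3.88% by the same p and fold. After Benjamini-Hochberg adjustment in limma, 0 of 15989 genes had an adjusted p value under 0.05, and 6.19% had an unadjusted p value under 0.05. The 9 genes had log2 differences of −0.65 to 0.34, and the ranges of the groups overlapped for each. Two-sided exact permutation tests over the 8 mice cannot give a p value below 0.0286. They are given beside limma for Entpd2, Entpd8, Slc29a1 and the called pathway genes.

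The listed genes for nucleotide-cutting enzymes other than CD73 were measured at very different precision. Entpd2 encodes an ecto-nucleotidase that prefers ATP to ADP and is known in liver from portal fibroblasts. Its normalized counts were 196, 301, 211 and 210 in control mice and 62.5, 186, 204 and 181 in treated mice. All 4 treated mice were below the control median, with replicate 3 within the control range, replicates 2 and 4 just under it and replicate 1 far below. The means were 230 ± 48.3 and 159 ± 64.8 (SD, n = 4 each), and the log2 difference was −0.65 with a standard error of 0.34 and a 95% interval of −1.39 to 0.10. Limma gave p = 0.0835 and an adjusted p of 0.763, and the exact permutation test gave p = 0.0571. Without AF1 peptide replicate 1 the difference was −0.25, with an interval of −0.59 to 0.10. Without AF1 peptide replicate 3 it was −0.81 and passed the call, with an unadjusted limma p of 0.046. Part of the Entpd2 exons overlaps Npdc1 on the same strand, and 25.87% of its 50-base stretches of exon sequence occur in 1 other gene, so reads could be split between genes. Npdc1 itself had 270 ± 78.2 and 228 ± 59.6 normalized counts (SD, n = 4 each), a log2 difference of −0.24 with an adjusted limma p of 0.834.

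In AF1 peptide replicate 1, where Entpd2 was lowest, markers of some non-parenchymal cells were also low. Of 6 portal fibroblast markers, 5 were lowest in this mouse, none was at 0 in any mouse, and their summed level was 1788 normalized counts against 3766 to 4390 in the other treated mice and 3803 to 4776 in control mice. Gas6 made up 1501 of this sum in that mouse and 3348 to 4354 normalized counts in the others, so the sum is largely 1 gene, and the remaining marker, Gli1, was highest in this mouse. Of 7 Kupffer cell markers, 6 were lowest in it, none was at 0, and the sum was 2758 against 6895 to 7450 in the other treated mice and 6361 to 7939 in control mice. Hepatocyte markers were displaced in this mouse as well. Of 7 periportal hepatocyte markers, 6 were highest in it, with a sum of 419015 normalized counts. That sum was 103117 to 203780 in the other treated mice and 150787 to 215287 in control mice. Of 7 general hepatocyte markers, 4 were lowest and 3 highest in it. They summed to 1734472, against 2111381 to 2543035 and 2438703 to 2563609. The part of any of these cells in the level of Entpd2 was not tested.

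Entpd1 encodes CD39, which cuts ATP and ADP to AMP on vascular and immune cells and is the classical partner of CD73. It had 70, 106, 69.2 and 110 normalized counts in control mice and 37.3, 110, 101 and 97.3 in treated mice. AF1 peptide replicate 1 was the lowest of all 8 mice, and the other treated mice lay in the upper part of the control range. Over all 8 mice the log2 difference was −0.12 with a standard error of 0.33, a 95% interval of −0.86 to 0.62 and an adjusted limma p of 0.951. Without AF1 peptide replicate 1 the sign turned, to 0.24. An interval this wide leaves room for changes in either direction larger than the fold threshold of 1.3. Sinusoidal endothelial markers, of which none of 9 was at 0, summed to 8293 to 9613 normalized counts in control mice and 8381 to 10272 in treated mice, with 8381 in AF1 peptide replicate 1. Single markers differed from this sum. Of the 9, 3 (Clec4g, Pecam1 and Fcgr2b) were lowest in AF1 peptide replicate 1, and 1 (Stab2) was highest in it. Of 8 recruited macrophage and monocyte markers, 7 were lowest in AF1 peptide replicate 1 and none was at 0. Their sum was 1097 normalized counts in it, against 1640 to 3136 in treated replicates 2 to 4 and 1849 to 3184 in controls. With the Kupffer cell markers given above, they were low in the mouse where Entpd1 was lowest. In control replicates 1 to 4 the Kupffer cell sum was 6361, 6927, 6747 and 7939. The macrophage and monocyte sum of these mice was 1897, 3184, 2172 and 1849. In AF1 peptide replicates 2 to 4 the Kupffer cell sum was 6895, 7450 and 7116. The macrophage and monocyte sum was 1640, 2836 and 3136 there. Entpd1 of the same mice is given above. The part of these cells in the level of Entpd1 was not tested.

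Entpd8 encodes the ecto-nucleotidase known from the canalicular membrane of hepatocytes. It had 3783, 3452, 4210 and 3533 normalized counts with control and 3512, 4225, 4614 and 3987 with AF1 peptide. The treated mice reached slightly higher, and the ranges overlapped over most of their length. The log2 difference was 0.12 with a standard error of 0.11, and its 95% interval of −0.13 to 0.37 was the narrowest of the 9 genes (limma, adjusted p = 0.83; exact permutation p = 0.286). Without AF1 peptide replicate 1 it was 0.19.

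Entpd5 encodes an enzyme of the endoplasmic reticulum and secretory pathway that acts mainly on UDP and GDP. Its normalized counts were 11581, 13410, 10157 and 8271 in control mice and 6864, 11653, 9305 and 11714 in treated mice. The lowest value was again that of AF1 peptide replicate 1. The difference was −0.15 on the log2 scale with a 95% interval of −0.59 to 0.30 (limma, adjusted p = 0.889), and 0.02 without that mouse.

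Enpp1 encodes a surface enzyme that cuts ATP directly to AMP and pyrophosphate, and so feeds CD73 by another route. It had 274, 239, 289 and 299 normalized counts in control mice and 337, 309, 316 and 209 in treated mice. Treated mice held both the highest and the lowest value. On the log2 scale the difference was 0.07 with a 95% interval of −0.28 to 0.42 (limma, adjusted p = 0.936), and 0.00 without AF1 peptide replicate 1.

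Downstream of CD73, the genes that bind, move or convert adenosine had differences near 0, apart from Slc29a1. Slc29a1 encodes ENT1, the main equilibrative transporter that carries adenosine across the plasma membrane. Control mice had 5020, 3324, 4579 and 3907 normalized counts and treated mice 7864, 5187, 4785 and 3975. The highest mouse was AF1 peptide replicate 1, followed by AF1 peptide replicate 2, and the remaining treated mice lay within the control range. The means were 4207 ± 746 and 5453 ± 1680 (SD, n = 4 each), a log2 difference of 0.34 with a standard error of 0.20 and a 95% interval of −0.11 to 0.80. Limma gave p = 0.12 and an adjusted p of 0.774, and the exact permutation test gave p = 0.2. The difference was 0.15 without AF1 peptide replicate 1. It was 0.48 without AF1 peptide replicate 4 and then passed the call, with an unadjusted limma p of 0.0395.

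Adk encodes adenosine kinase, which returns adenosine to AMP inside cells and is abundant in liver. Its normalized counts were 14919, 14340, 12109 and 12496 with control and 15029, 13695, 10594 and 12660 with AF1 peptide. Its log2 difference was −0.06 with a 95% interval of −0.36 to 0.25 (limma, adjusted p = 0.94), and −0.13 without AF1 peptide replicate 1. The control range lay within the treated range. Ada encodes adenosine deaminase and was a low gene in this liver, with 15 to 58 reads per library. It had 22.2, 33.5, 34.6 and 43.5 normalized counts in control mice and 28.0, 27.4, 47.8 and 29.4 in treated mice. Its difference of −0.01 had a 95% interval of −0.62 to 0.59 (limma, adjusted p = 0.994), which includes changes of 1.3-fold in either direction, and was 0.05 without AF1 peptide replicate 1. Its coefficient of variation was 26.1% in control and 29.6% in treated mice, of which counting error alone would give 17.1% and 19.3%.

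Adora1 encodes the A1 adenosine receptor, which couples to inhibitory G proteins. The normalized counts were 1118, 1234, 898 and 981 in control mice and 1223, 1098, 926 and 987 in treated mice. The means, 1058 ± 148 and 1059 ± 131 (SD, n = 4 each), were nearly equal. Their log2 difference was 0.00 with a 95% interval of −0.28 to 0.29 (limma, adjusted p = 0.996), and −0.07 without AF1 peptide replicate 1. Of the other adenosine receptors, Adora2a had 71.1 ± 4.29 and 77.0 ± 19.3 normalized counts (SD, n = 4 each; log2 difference 0.09, limma, adjusted p = 0.935). Adora2b was not tested, with 0 to 4 reads per library.

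Exons of Entpd8, Adora1 and Slc29a1 overlap those of Noxa1, Mybph and Gm17080 on the other strand. Whether strand was used in counting is not given in the sources used here, so reads of such pairs may not have been told apart. Noxa1 itself had 3 to 18 reads per library.

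**Figure D2:**
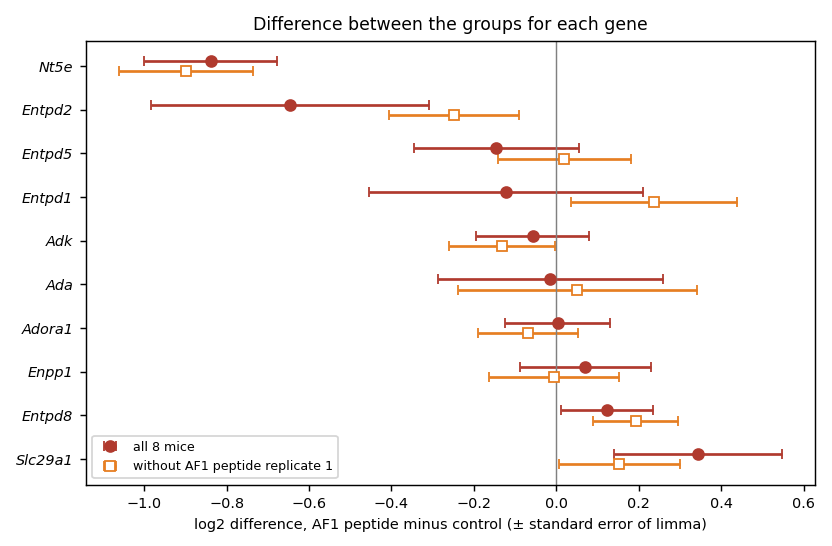
Log2 difference, AF1 peptide minus control (horizontal axis), of the 10 genes with the standard error of limma, over all 8 mice (filled circles) and without AF1 peptide replicate 1 (open squares). Nt5e lies at −0.84 and −0.90, Entpd2 moves from −0.65 to −0.25, and Entpd1 changes sign from −0.12 to 0.24.

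AF1 peptide replicate 1 was the lowest of the 8 mice for 3 of the 10 genes (Entpd1, Entpd2 and Entpd5) and the highest for 3 others (Enpp1, Adk and Slc29a1). It was lowest for 23.4% and highest for 25.9% of all tested genes. Nt5e was at neither end in this mouse. In the remaining 3 treated mice the coefficient of variation of Nt5e was 16.8%, against 15.4% in all 4, while that of Entpd2 was 6.43% against 40.9% and that of Entpd1 6.2% against 38.3%. Nt5e was picked by the call and by groups that did not overlap, which favours a small spread within groups. Its contrast with Entpd1 and Entpd2 therefore supports nothing further.

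To compare levels between genes, normalized counts were divided by the joint length, in kilobases, of all annotated exons of a gene. Levels of genes that use only some of these exons are understated. In control mice the order ran from Entpd5, at 1797.38 ± 360.5 normalized reads per kilobase, through Adk (1579.39 ± 161.08), Entpd8 (1379.23 ± 125.62) and Slc29a1 (1049.74 ± 186.17). Adora1 (182.85 ± 25.65), Entpd2 (107.9 ± 22.69), Nt5e (40.85 ± 6.59) and Enpp1 (26.82 ± 2.54) followed, with Ada (16.72 ± 4.36) and Entpd1 (15.92 ± 3.98) at the bottom (SD, n = 4 throughout). Neighbours in this order were separated in every control mouse, other than Entpd5 and Adk, Adk and Entpd8, and Ada and Entpd1, whose ranges overlapped. The 4 highest genes lay at the 92.0 to 94.7 percentiles of tested genes, Nt5e at the 37.8 percentile and Entpd1 at the 20.2 percentile. In AF1 peptide-treated mice Nt5e had 22.77 ± 3.5 normalized reads per kilobase (SD, n = 4), which placed its mean below that of Enpp1 at 28.53 ± 5.53 (SD, n = 4). Nt5e was thus a low transcript of whole liver beside Adk and Slc29a1. Alpl and Acp3, whose products also make adenosine from AMP, were not placed in this order.

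**Figure D3:**
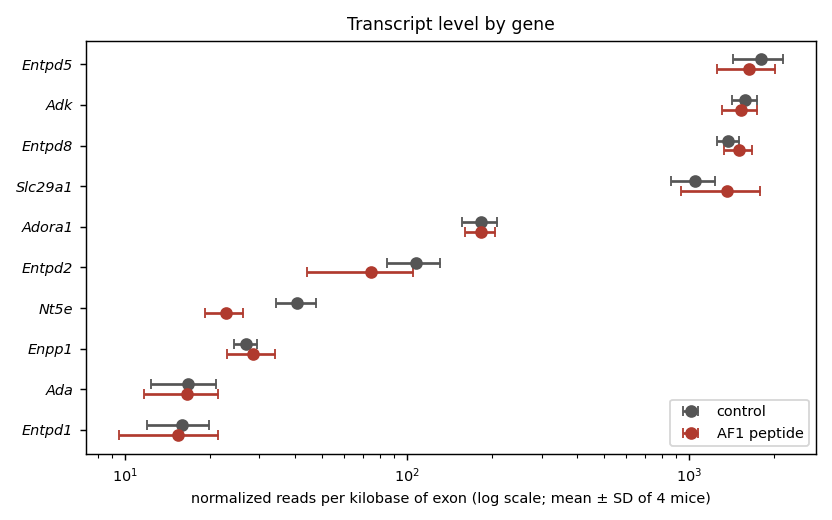
Normalized reads per kilobase of exon (horizontal axis, log scale) for the 10 genes, as mean and SD of 4 control (grey) and 4 AF1 peptide-treated mice (red). Entpd5, Adk, Entpd8 and Slc29a1 have the highest means in both groups, and Nt5e moves from 40.85 to 22.77.

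The wider purine pathway was followed with 81 further genes listed by role, of which 76 were in the table and 65 could be tested. Of these, 1 was called higher (P2rx3) and 2 lower (Enpp4 and Hprt), beside the 3.69% called among all genes, and none had groups that did not overlap. No adjusted limma p value was under 0.05, and the same 3 genes were those with an unadjusted p value under 0.05 at any fold. Enpp4 passed narrowly, at an unadjusted limma p of 0.0492. The exact permutation test gave p = 0.114 for P2rx3, 0.0857 for Enpp4 and 0.0571 for Hprt. EdgeR called 3 (Hprt, P2rx3 and P2ry14) and DESeq2 called 4 (Abcc6, Hprt, P2rx3 and P2ry14). Without AF1 peptide replicate 1, limma called 5 (Enpp4, P2rx3, Pnp, Pnp2 and Slc28a2b), beside 5.90% of all genes. The median log2 difference of the 65 genes was −0.051, and that of all tested genes was −0.008.

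Enpp4, a relative of Enpp1 that hydrolyses diadenosine polyphosphates, had 56.9, 69.9, 87.6 and 79.6 normalized counts in control mice and 59.7, 47.5, 51.1 and 59.7 in treated mice. Its groups overlapped through control replicate 1. It differed by −0.41 on the log2 scale, with a standard error of 0.19 (limma, adjusted p = 0.763) and −0.46 without AF1 peptide replicate 1. Among the other nucleotide hydrolases, Alpl, the alkaline phosphatase that also turns AMP into adenosine, had 1355 ± 241 and 1563 ± 305 normalized counts (SD, n = 4 each; log2 difference 0.21, limma, adjusted p = 0.811), and its difference was 0.08 without AF1 peptide replicate 1, the highest mouse. Cant1, a nucleotidase of the secretory pathway, had a difference of −0.02 (0.03 without that mouse). Acp3, a transmembrane phosphatase that also makes adenosine from AMP and is listed in the table as Acpp, had a difference of −0.41 with an unadjusted limma p of 0.0732, and of −0.24 without AF1 peptide replicate 1, its lowest mouse. It was outside the naming rule. The cytosolic 5′-nucleotidases Nt5c2 (0.12) and Nt5c (−0.06) were not called, and had 0.28 and −0.14 without that mouse.

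Inside the cell, Hprt, which salvages hypoxanthine and guanine, was called lower. Control mice had 1735, 1928, 1370 and 1613 normalized counts and treated mice 1178, 1366, 956 and 1573. Only AF1 peptide replicate 4 lay within the control range. The log2 difference was −0.40 with a standard error of 0.16 (limma, adjusted p = 0.763) and −0.37 without AF1 peptide replicate 1, where its fold no longer passed the threshold and the call was lost. The enzymes that carry purines on to uric acid and allantoin, Xdh and Uox, had differences of 0.18 and −0.06 (0.11 and −0.20 without AF1 peptide replicate 1), and the adenylate kinase Ak3 had 0.04. Ahcy, which releases adenosine from S-adenosylhomocysteine in the methylation cycle, had 39150 ± 8480 and 52857 ± 23400 normalized counts (SD, n = 4 each). Its log2 difference of 0.36 (limma, adjusted p = 0.804) was 0.09 without AF1 peptide replicate 1. Other genes hold 68.7% of the 50-base stretches of Ahcy, so its reads are uncertain. Ahcyl1 had 0.10.

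Among transporters and ATP release genes, the nucleoside transporters Slc29a3 and Slc29a2 had log2 differences of −0.27 and −0.07, which were −0.15 and −0.10 without AF1 peptide replicate 1. The gap junction gene Gjb1 had 8856 ± 938 and 10835 ± 2710 normalized counts (SD, n = 4 each), a difference of 0.27 that was 0.11 without AF1 peptide replicate 1. Abcc6, through which hepatocytes release ATP, had 7877 ± 839 and 10443 ± 3430 normalized counts (SD, n = 4 each), a difference of 0.36 that was 0.16 without that mouse (limma, adjusted p over all 8 mice 0.763). None of these passed the limma call.

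Among the receptors for extracellular nucleotides, P2rx3 was called higher. It encodes an ATP-gated cation channel best known from sensory neurons and had 148, 127, 162 and 153 normalized counts in control mice and 449, 265, 203 and 143 in treated mice. The treated values ran from within the control range, in replicate 4, to the highest of all, in replicate 1. The log2 difference was 0.72 with a standard error of 0.29 (limma, adjusted p = 0.763) and 0.43 without replicate 1. Its exons overlap those of Ssrp1 on the other strand, and the limit on strand given above holds for it too. P2rx4 had 0.16, and the P2Y receptors P2ry2 and P2ry1 had −0.06 and 0.26, with P2ry1 at −0.08 without AF1 peptide replicate 1. Exons of P2ry1, Nt5c2, Nt5c and Ak3 also overlap other genes on the other strand.

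**Figure D4:**
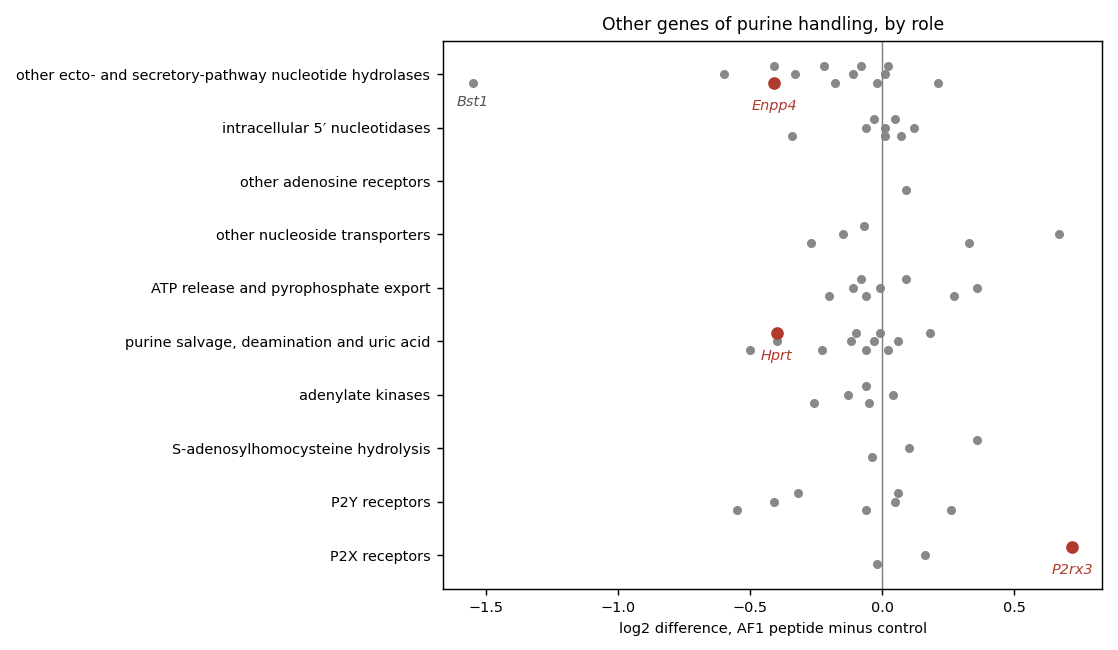
Log2 difference, AF1 peptide minus control (horizontal axis), of the 65 tested pathway genes by role, with 1 point per gene and the genes called by limma in red. Enpp4 and Hprt lie at −0.41 and −0.40 and P2rx3 at 0.72, while the lowest point, Bst1, had 0 to 44 reads per library and was not called.

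The genes whose pattern over the 8 mice was most like that of Nt5e came from outside adenosine metabolism. Likeness was measured as the root mean square difference between the log2 values of a gene and those of Nt5e, each less its own mean, over 12434 genes with a mean of 50 or more, where the median was 0.51. The nearest were Nipsnap3b (0.17), Csnk2b (0.18), Sh3bgrl2 (0.19), H3f3c (0.19) and Gbe1 (0.20). Nipsnap3b had 490 ± 75.1 normalized counts with control and 328 ± 44.4 with AF1 peptide (SD, n = 4 each). Csnk2b, the regulatory subunit of casein kinase 2, had 183 ± 37.7 and 114 ± 20.2, and Gbe1, the glycogen branching enzyme, had 621 ± 167 and 417 ± 54.8 (SD, n = 4 each). For all 5 the treated mice lay below the control median, which their choice by likeness to Nt5e fixed, and for Csnk2b and Gbe1 the groups overlapped. Csnk2b overlaps Gpank1 on the other strand. H3f3c shares 73.76% of its 50-base stretches with other genes, and its reads are uncertain. The 9 adenosine genes lay at 0.45 (Adk) to 0.70 (Slc29a1), around the median of 0.51. A gene with the same level in all 8 mice would lie at 0.47. The 5 nearest were picked for nearness out of 12434 genes, so their lead over the 9 was fixed by that choice. It says nothing about the 9 genes.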

How the data were processed

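Liver RNA of 8 male db/db mice, 4 per group, was measured by stranded mRNA sequencing. The authors trimmed the reads with Trim Galore 0.6.7, aligned them with HISAT2, used SAMtools 1.17 for sorting and GenomicAlignments for counts per gene. The submitters' processing notes name mm39. They deposited a signal per gene and mouse, the normalized read count, which is reads divided by a size factor. Whole reads were recovered from 100% of the 172256 values, within 0.01 read. The deposited values were expected to be normalized counts and were found to be so.

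The 10 genes, the pathway and marker lists and the tests were chosen with earlier results of these data known. Named were all 10 genes, the called genes and the 2 most abundant genes of each pathway list, and the 5 genes most like Nt5e. One gene that this rule names is not reported here. Group and replicate came from the labels. The log2(normalized count + 1) of 15989 genes with a mean of at least 10 was compared by limma 3.58.1 (R 4.3.3), whose moderated variance followed the mean level. Differences on this scale understate changes of low genes. A gene was called at an unadjusted p value under 0.05 and a fold beyond 1.3, the thresholds of the study. P values were adjusted over all tested genes by Benjamini-Hochberg. Depth was 23031880 to 45117528 reads, and Poisson intervals of single values cover counting error only. Replicates of a group differed by far more than sampling noise, so none was a duplicate. Alternatives were pseudocounts of 0.5 and 5, other filters, scalings and variances, a replicate block, edgeR 4.0.16 and DESeq2 1.42.0 on recovered reads, and each mouse left out in turn. Exon lengths, overlaps and shared sequence came from GENCODE M21, which gave lengths for 92.4% of tested genes. It belongs to another build than the files, so coordinates are not given.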

Additional observations from a re-analysis of the deposited data

Results flagged for a closer look

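In 9 of 48 groups of 4 mice, counting the 10 genes, the marker sums and the mitochondrial share of reads, the highest or lowest mouse was separated from its nearest neighbour by a gap that took up more of the group's range than Dixon's 95% critical value allows. For normally distributed values chance gives about 2.4 such groups. The 48 groups come from the same libraries and are not independent, so the count of 9 is no test. AF1 peptide replicate 1 gave 4 of the 9. In AF1 peptide-treated mice, replicate 1 was apart at the low end for Entpd1 (gap 0.831 of the range, 37.3 against 97.3 to 110 normalized counts) and for Entpd2 (0.835, 62.5 against 181 to 204). The same mouse was apart for the Kupffer cell sum (0.882, 2758 against 6895 to 7450) and the red blood cell sum (0.888, 27111 against 49135 to 51923). Entpd2 was also apart in control replicate 2, at the high end (0.861, 301 against 196 to 211). Ada was apart in AF1 peptide replicate 3 (0.902, 47.8 against 27.4 to 29.4 normalized counts), where it rested on 58 reads. The sinusoidal endothelial sum was apart in control replicate 4 (0.93, 9613 against 8293 to 8386) and in AF1 peptide replicate 3 (0.895, 10272 against 8381 to 8579). The red blood cell sum was apart in control replicate 4 (0.882, 123375 against 34147 to 44635). Nt5e had no mouse apart in either group. The mitochondrial share had no mouse apart by this measure. What sets these mice apart was not tested.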

How the results depend on the processing

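The log2 difference of Nt5e stayed between −0.95 (without control replicate 3) and −0.72 (without AF1 peptide replicate 2) in the 20 alternatives run. The way Nt5e was picked favours such a narrow range. Entpd2 (−0.81 to −0.25), Entpd8 (0.03 to 0.19) and Slc29a1 (0.15 to 0.48) also kept their direction in all 20. Signs turned without AF1 peptide replicate 1 for Entpd1 (0.24, with −0.27 the lowest value with a mouse left out), Entpd5 (0.02, lowest −0.27) and Enpp1 (0.00, highest 0.22), for Enpp1 also with equal totals (−0.02). That of Adk turned without AF1 peptide replicate 3 (0.04, lowest −0.13). Ada turned to 0.00 in edgeR and 0.01 in DESeq2 and ran from −0.20 to 0.12 with a mouse left out (among these 0.01, 0.03, 0.05 and 0.06). Adora1 gave 0.00 with TMM factors and in edgeR, −0.09 with equal totals and −0.07 to 0.08 with a mouse left out (among these −0.02 and −0.03).

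Among the 9 genes other than Nt5e, 0 were called, and 0 to 1 with a mouse left out. With equal totals 1 was called, Entpd2 at −0.74. Pathway genes called numbered 3, 1 with each gene's own variance and 0 (without control replicate 2) to 5 (without AF1 peptide replicate 1) with a mouse left out. Over all genes, 286 were higher and 304 lower. No filter gave 435 and 459, no fold threshold 506 and 484, and leaving out a mouse 201 to 457 and 172 to 486. Each gene's own variance gave 197 lower. Equal totals gave 122 and 604, that is, 16.8% higher against 48.5%, with the median of all genes at −0.099 against −0.008. Equal totals without mitochondrial genes gave 273 and 272, that is, 50.1% higher, with the median at −0.009. In that setting Entpd2 had −0.65 and was not called. The causes of these shifts were not tested.

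With the replicate number as a block, 1 of the 9 genes was called, Entpd2 at −0.65, and 341 genes were higher and 392 lower. The mice share only a number. Across genes, the deviations of same-numbered mice from their group means correlated at 0.235, 0.024, 0.216 and −0.064, so not every mouse went with its own number.

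Counting error was largest for Ada (15 to 58 reads) and Entpd1 (40 to 131 reads). Intervals of the 9 genes that span 0 do not show equal levels.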
